A study of Homo sapiens with 6 samples.

Results

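Acetylation of histone H3 at lysine 27 (H3K27ac), a modification found at active promoters and enhancers, was mapped by ChIP-seq in SU-CCS-1. This established line was derived from a human clear cell sarcoma (CCS) and has the genotype EWSR1::ATF1. The series held 3 H3K27ac libraries and 3 libraries of input chromatin from this 1 line, and the deposited result was a single merged list of 30784 peaks on hg38 with no score, read depth or value per replicate. The 5 genes described here are the parents of the fusion, EWSR1 and ATF1, with TAF15, a relative of EWSR1, and CREB1 and CREM, the close relatives of ATF1. Peaks were taken when they overlapped the GENCODE version 44 body of one of these genes or lay within 50 kb of it, which gave 29 distinct peaks. Of these, 19 overlapped a gene body, 10 lay only in a flank, and 14 were promoter peaks, meaning that they came within 3 kb of any annotated transcript start of the gene. Because only 1 list exists, every value below is a description without replicate error. Reads aligned to hg38 also cannot be assigned to the normal or the rearranged copy of EWSR1 and ATF1.

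EWSR1 and TAF15 belong to the FET family of RNA-binding proteins, which join a low-complexity, transcription-activating amino-terminal region to RNA-binding domains. ATF1, CREB1 and CREM are basic leucine zipper transcription factors that bind the cyclic AMP response element as dimers and are switched on by phosphorylation downstream of protein kinase A. In CCS the activating region of EWSR1 replaces the regulatory region of ATF1, so that the ATF1 DNA-binding domain is carried by a constitutively active protein. CREM is also known for an internal promoter whose short products lack the activating region and act as repressors. The reference proteins show this relatedness. The last 60 residues, which hold the leucine zipper region, were 93.3% identical between CREB1 and CREM, 86.7% between ATF1 and CREB1 and 85.0% between ATF1 and CREM. Over the whole aligned proteins the same pairs reached 69.8%, 65.3% and 58.6%, and EWSR1 and TAF15 shared 54.1% of 490 aligned residues.

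The start sequences of the fused genes and of the internal CREM starts are shown first, because later paragraphs refer to them. They are RefSeq promoter windows of build GRCh38.p14, each on the plus strand and running from 250 bases before a start site to 50 bases after it. Capitals mark the ATF/CREB site TGACGTCA and its flexible form TGANNTCA, where N is any base. The EWSR1 window lies at chr22:29268018-29268317, the ATF1 window at chr12:50764077-50764376, the first internal CREM window at chr10:35194883-35195182 and the second at chr10:35195600-35195899.
EWSR1: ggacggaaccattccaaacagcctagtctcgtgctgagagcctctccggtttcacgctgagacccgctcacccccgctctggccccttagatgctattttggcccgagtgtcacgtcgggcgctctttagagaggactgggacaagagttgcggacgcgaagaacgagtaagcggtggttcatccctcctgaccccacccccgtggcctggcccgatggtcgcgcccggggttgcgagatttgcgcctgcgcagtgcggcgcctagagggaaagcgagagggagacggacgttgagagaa
ATF1: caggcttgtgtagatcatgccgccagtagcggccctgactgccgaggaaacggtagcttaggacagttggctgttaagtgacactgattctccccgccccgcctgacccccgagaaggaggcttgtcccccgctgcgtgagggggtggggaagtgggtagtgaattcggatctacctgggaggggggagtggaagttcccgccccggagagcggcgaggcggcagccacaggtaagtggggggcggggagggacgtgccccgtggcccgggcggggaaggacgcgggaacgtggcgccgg
CREM first internal start: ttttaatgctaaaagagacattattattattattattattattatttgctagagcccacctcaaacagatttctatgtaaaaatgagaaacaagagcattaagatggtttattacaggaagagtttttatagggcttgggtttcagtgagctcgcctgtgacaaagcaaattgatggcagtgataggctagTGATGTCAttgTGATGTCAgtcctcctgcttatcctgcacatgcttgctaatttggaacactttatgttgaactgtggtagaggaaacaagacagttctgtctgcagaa
CREM second internal start: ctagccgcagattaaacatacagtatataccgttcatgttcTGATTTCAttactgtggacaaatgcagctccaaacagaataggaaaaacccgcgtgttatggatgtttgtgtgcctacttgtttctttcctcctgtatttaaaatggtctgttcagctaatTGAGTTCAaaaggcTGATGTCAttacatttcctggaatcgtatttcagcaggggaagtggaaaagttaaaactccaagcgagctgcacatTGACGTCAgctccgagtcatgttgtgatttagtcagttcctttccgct
The EWSR1 and ATF1 windows lay entirely inside peaks, had GC contents of 62.7% and 67.7%, and held none of these motifs. The internal CREM windows were AT-rich, with GC contents of 36.7% and 41.3%, and lay mostly or partly outside peaks, with 22 and 181 of their 300 bases covered. They held 2 and 4 matches to TGANNTCA, and the last match of the second window was the full TGACGTCA.

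All 5 genes carried a promoter peak over their canonical start, from 1570 bases wide at TAF15 to 4320 bases at CREB1. The number of peaks in the body and flanks differed more widely. Over all protein-coding genes, 12691 of 20015 (63.4%) had a promoter peak, and the 95% Wilson interval for 5 of 5, which covers counting only, had a lower bound of 56.6% and so included the share of genes at large. CREM stood highest by number, with 17 peaks in the body and flanks, against 5 each for EWSR1 and CREB1 and 1 each for ATF1 and TAF15. The median protein-coding gene had 3. As many peaks as CREM were found at 1.06% of protein-coding genes, whereas 83.1% had at least as many as ATF1 or TAF15.

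**Figure D1:**
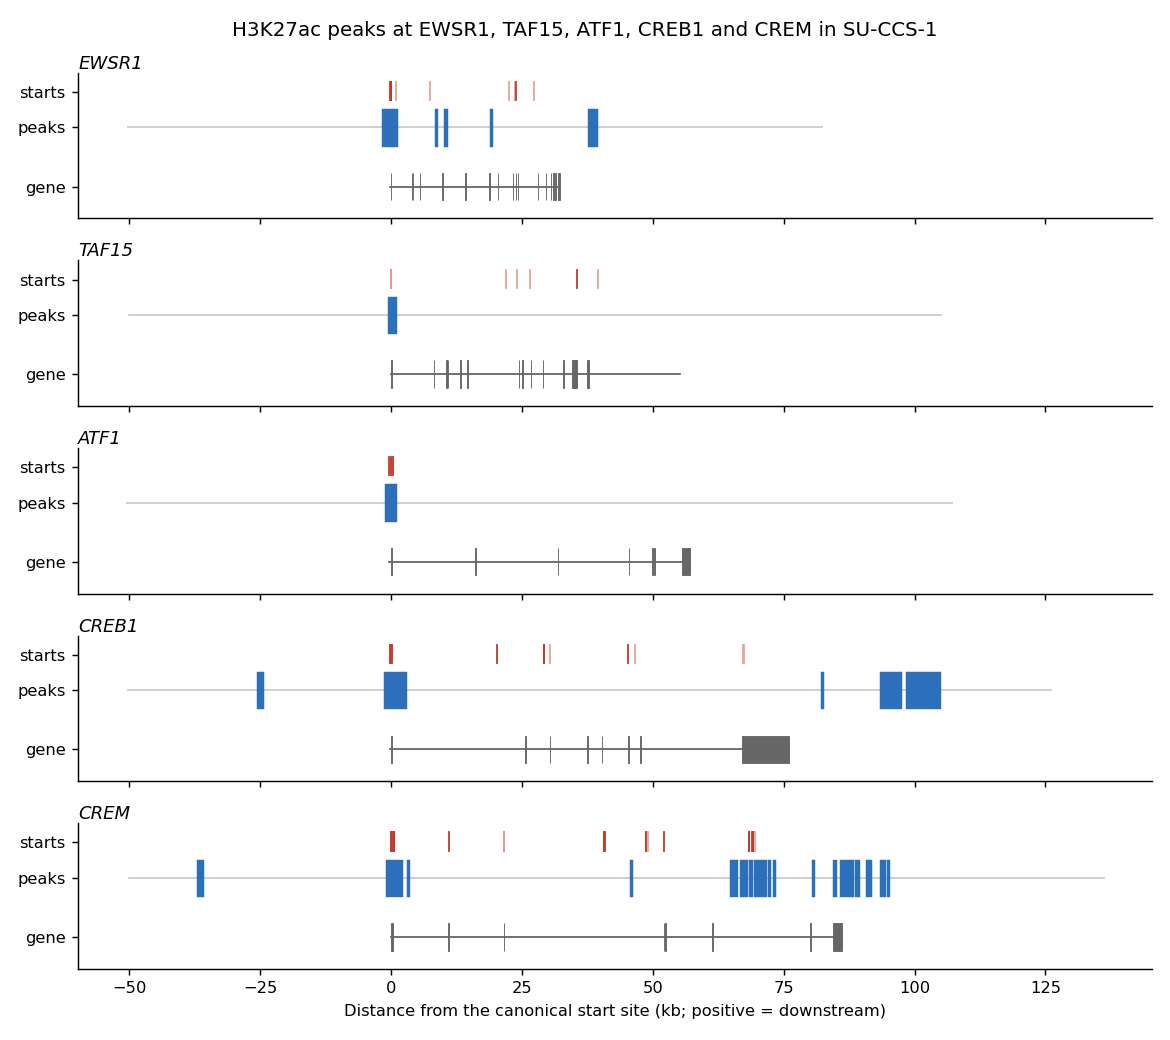
Peaks (blue), canonical exons (grey) and annotated start sites (red for protein-coding transcripts, pale red for others) at each gene, by distance in kb from the canonical start. ATF1 and TAF15 have a single peak at the start, EWSR1 has 3 narrow intronic peaks, CREB1 has 4 peaks in its flanks, and CREM has a cluster of 13 peaks at its 3′ end.

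EWSR1 lies on the plus strand at chr22:29268009-29300525 and spans 32.52 kb. Its start peak, chr22:29266511-29269480, was 2970 bases wide, and 10.9% of the genes with an acetylated canonical start had one as wide or wider. This peak also held the start of RHBDD3, a rhomboid-domain membrane protein gene on the opposite strand, whose canonical start lay 287 bases from that of EWSR1. A further 3 peaks lay in introns, in intron 4 (470 bases), intron 5 (430 bases) and intron 7 (430 bases). These were among the narrowest intervals of the list, in which 11.2% of peaks were at most 470 bases wide and none was under 400. The peaks of introns 4 and 5 counted as promoter peaks only through the start of a non-coding EWSR1 transcript, 1002 and 2822 bases away. With coding transcripts alone EWSR1 had 1 promoter peak in place of 3. The fifth peak, of 1800 bases, lay in the downstream flank over the start of GAS2L1, a cytoskeletal linker gene.

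TAF15 spans 55.13 kb at chr17:35809482-35864615 and had a single peak of 1570 bases at chr17:35808811-35810380. All 5 starts of its outer group lay inside this peak, while its other 5 annotated starts, 21.96 to 39.59 kb downstream of the canonical start, had none. The nearest other peaks were 76.64 kb upstream and 672.6 kb downstream. At least 76.64 kb without a peak on each side, the smaller of these distances, was found for 9.66% of all peaks. None of its 4 protein-coding neighbours, MMP28, C17orf50, HEATR9 and CCL5, had a promoter peak. Summed promoter peak width at TAF15 was the smallest of the 5 genes, and 58.4% of genes with a promoter peak had as much or more.

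ATF1, the other parent of the fusion, spans 57.45 kb at chr12:50763710-50821162. Its only peak, chr12:50762961-50765100, was 2140 bases wide and held all 5 annotated starts. No opposite-strand start lay in it, in contrast to the start peaks of the other 4 genes. The nearest peaks lay 70.78 kb upstream and 158.9 kb downstream. At least the smaller distance, 70.78 kb, lay on each side of 10.5% of peaks. Of its neighbours, DIP2B had promoter peaks summing to 2300 bases and TMPRSS12, a serine protease gene, had none. Acetylation at ATF1 was therefore listed at the start alone, with 2.42% of the body inside peaks.

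CREB1, the cyclic AMP response factor after which the family is named, spans 76.25 kb at chr2:207529737-207605988. Its start peak at chr2:207528581-207532900 measured 4320 bases, the widest start peak of the 5 genes, and 4.17% of genes with an acetylated canonical start had one as wide. All 7 starts of the outer group lay inside it. The other 10 annotated starts, 20.3 kb or more downstream, lay in a stretch of 79.22 kb without a peak that reached past the 3′ end of the gene. The remaining 4 peaks were in the flanks. The 3 downstream of CREB1, of 400, 3900 and 6660 bases, were all promoter peaks of METTL21A, a protein lysine methyltransferase gene on the opposite strand whose body overlaps the 3′ part of CREB1. The widest of them was matched or exceeded in width by 1.04% of peaks.

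CREM, which encodes both activating and repressing isoforms, spans 86.17 kb at chr10:35126791-35212958 and has 48 annotated transcripts with 44 distinct starts. These starts formed 8 groups when starts within 500 bases were joined. The outer start peak, chr10:35125831-35128950, measured 3120 bases and held all 22 starts of the first group, together with a start of CUL2, the scaffold of a ubiquitin ligase, and the start of a long non-coding RNA 189 bases from the canonical CREM start. A peak of 420 bases followed 910 bases further on. Start groups 2 to 6, with 13 starts between 10.99 and 52.04 kb downstream, had no peak over them, and the nearest peaks were 2667 to 18121 bases away.

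By summed peak width, the largest cluster of peaks at any of the 5 genes lay at the 3′ end of CREM. The amount of acetylation in it is not known, because the list has no signal. Between chr10:35191681 and chr10:35221980, 13 peaks covered 13.02 kb of a 30.3 kb stretch that ran from intron 6 across the last exons into the downstream flank. Most peaks of the gene were narrow. In all, 12 of the 17 were under the list median of 1060 bases and 3 were wider than 2 kb, namely the outer start peak, a peak of 2280 bases in intron 6 and a peak of 2570 bases over the end of the gene. They were also closely spaced, with 9 of the 16 gaps between CREM peaks at most 1 kb, against 20.8% of gaps between neighbouring peaks in the whole list. Of the 8 gaps between peaks at EWSR1 and CREB1, 1 was that short.

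Inside this cluster lay the last 2 start groups of CREM. Group 7 comprised 3 starts at chr10:35195127-35195147, used by 4 protein-coding transcripts, and group 8 comprised 6 starts at chr10:35195865-35196399, used by 6 transcripts of which 5 were protein-coding. Both groups precede only exons 7 and 8 of the 8 canonical exons, and the last 60 residues of CREM are encoded from exon 7 on. Transcripts from these starts can thus contain the leucine zipper region but none of the upstream canonical exons. Which of them corresponds to the known internal promoter is not named in the annotation used.

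The internal starts lay in the gaps between peaks, with 1 exception. All 3 starts of group 7 fell in a gap of 370 bases, 14 to 34 bases before the next peak, and 5 of the 6 starts of group 8 fell in a gap of 480 bases, with the sixth inside the 2280-base peak. Altogether 8 CREM starts lay in gaps of at most 1 kb, as did 0.782% of the distinct starts of protein-coding genes, of which 41.1% lay inside a peak. None of the starts of the other 4 genes lay in such a gap. All 8 also met a limit of 500 bases, which was chosen after seeing the data. Broad peak calling sets where one peak ends and the next begins, and whether the gaps were free of acetylated nucleosomes was not tested.

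**Figure D2:**
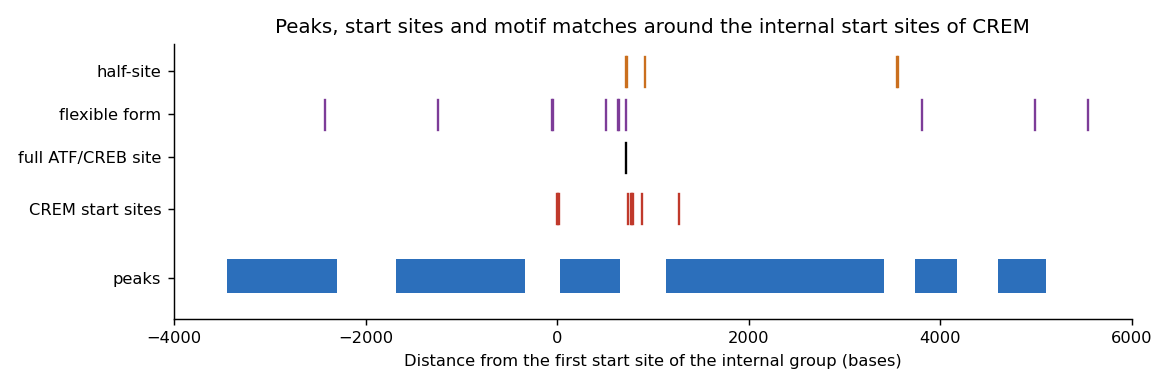
Peaks (blue), CREM start sites (red) and motif matches on both strands, by distance in bases from the first start of the internal group. The 3 starts at the left and 5 of the 6 at the right fall in gaps of 370 and 480 bases, and the single full ATF/CREB site (black) lies in the second gap.

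The internal CREM region was less GC-rich than the 5 canonical start peaks, as were the peaks at these genes outside it that held no start. The start peaks had GC contents of 55.3% at CREB1, 56.9% at TAF15, 57.1% at CREM, 61.1% at EWSR1 and 62.0% at ATF1, beside a median of 61.2% for start peaks of all genes. The 13 peaks of the CREM cluster ranged from 38.4 to 50.3%, all below the median of 53.6% over all peaks. Among them, the peak of 2280 bases, which held a CREM start, had a GC content of 40.1%. Outside the cluster, the 8 peaks at these genes that held no annotated start had GC contents of 38.6 to 54.9%, and the median over all peaks without a start was 48.6%, so low GC content was not particular to the cluster.

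The ATF/CREB site, to which the DNA-binding domain shared by the fusion, ATF1, CREB1 and CREM binds, was searched on both strands as TGACGTCA. No promoter peak of the 5 genes held it, and neither did any other of the 29 peaks. The site was rare at large, in 6.09% of protein-coding genes with a promoter peak and 2.58% of all peaks. Its absence from so few genes and peaks therefore does not set them apart. Across the bodies and flanks of the 5 genes the site occurred 3 times, with 2 matches at ATF1 outside any peak or short gap and 1 at CREM. The CREM match lay at chr10:35195852-35195859, in the 480-base gap between peaks, 2 bases past the RefSeq start of the second internal window. The same match lay 50 bases before a further RefSeq start, at chr10:35195902, and before all 6 starts of group 8. Of all gaps of at most 1 kb in the list, 1.06% held the site.

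The flexible form TGANNTCA, which includes TGACGTCA, was more frequent. It occurred 26 times in 17 of the 29 peaks, or 58.6%, against 40.8% of all peaks. At 0.587 matches per kb, the density in the peaks of these genes stood beside 0.466 per kb over the whole list. The second internal CREM window printed above held 4 matches, and 6 of 35116 RefSeq promoter windows (0.0171%) held 4 or more. The flexible form was added after seeing the data, and windows were not matched for GC content. Whether the number of matches is unusual was therefore not tested. In the first internal window, 2 copies of TGATGTCA began 59 and 48 bases before the start, and 0.948% of windows held 2 or more matches. The half-site TGACG, which TGACGTCA contains on both strands, was denser in the short gaps of the CREM cluster (5 matches, 1.40 per kb, of which 2 belong to the full site) than in its peaks (3 matches, 0.230 per kb), while the flexible form was equally dense in both, at 0.840 and 0.845 per kb. Over the whole list TGACG was likewise denser in short gaps (0.896 per kb) than in peaks (0.665 per kb). These are matches of letters, and binding was not measured here.

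To set the fused genes beside the junction of the fusion, peaks were counted on each side of the exons joined in the most common form of the EWSR1::ATF1 transcript, EWSR1 exon 8 and ATF1 exon 4. The labels do not give the junction of SU-CCS-1, so this is a reference point and not a measured breakpoint. All 4 EWSR1 body peaks lay in the 20.78 kb up to the end of exon 8 and none in the 11.74 kb after it. The third intronic peak, chr22:29287171-29287600, began 36 bases after exon 7 and ended 1005 bases before exon 8. In ATF1 the single peak preceded exon 4 by most of the gene, and the 11.71 kb from exon 4 to the end of the body had none, nor had the 50 kb that follow. With this junction, the part of EWSR1 that enters the fusion held all body peaks of the gene, and the part of ATF1 that enters it held none. The EWSR1 part includes the gene start and the ATF1 part does not, so start peaks fall in the EWSR1 part alone. How body peaks divide in other genes was not counted.

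An acetylated start shared with an opposite-strand gene was common among the 5 genes, found at 4 of 5. Over all genes with a canonical start in a peak the share was 40.5%. The partner was protein-coding at EWSR1 (RHBDD3) and CREM (CUL2), and a long non-coding RNA at TAF15, 587 bases away, and at CREB1, 167 bases away. A body peak beyond 3 kb of any start of the gene was present at EWSR1, with 1 such peak, and at CREM, with 4, which makes 2 of 5 genes against 17.9% of protein-coding genes.

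**Figure D3:**
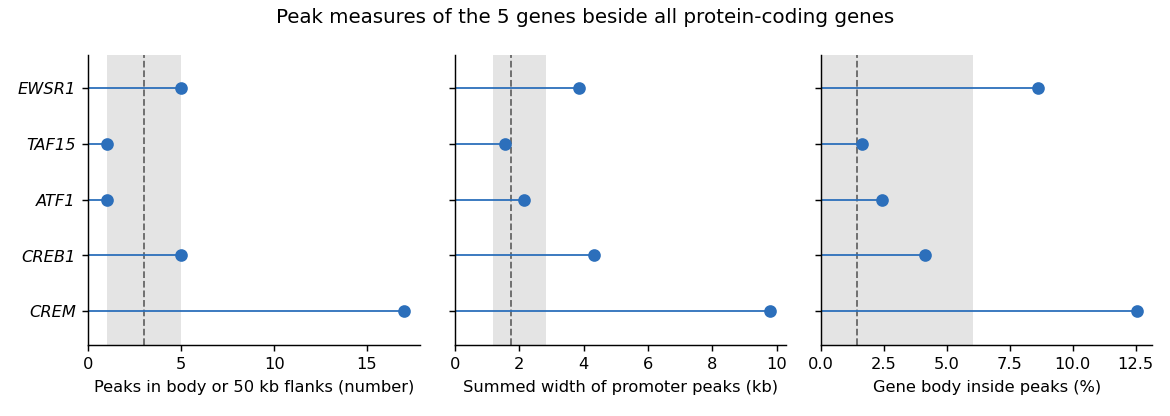
Number of peaks in the body and 50 kb flanks, summed promoter peak width in kb and percent of the gene body inside peaks for each gene (blue points). Grey bands span the quartiles and dashed lines give the medians of all protein-coding genes, or, for width, of those with a promoter peak. CREM is highest in each panel, at 17 peaks, 9.8 kb and 12.54%, and ATF1 and TAF15 lie within the bands.

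By summed promoter peak width the genes ranked CREM (9800 bases), CREB1 (4320 bases), EWSR1 (3870 bases), ATF1 (2140 bases) and TAF15 (1570 bases). The median over genes with a promoter peak was 1760 bases. At CREM 8 peaks counted as promoter peaks, a number reached by 0.394% of such genes. With the canonical transcript alone it had 1 promoter peak of 3120 bases, less than CREB1. Within a 1 kb window it had 4. The share of the gene body inside peaks was 12.54% at CREM, 8.62% at EWSR1, 4.15% at CREB1, 2.42% at ATF1 and 1.63% at TAF15, against a median of 1.45%.

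Neighbouring peaks were joined into stitched regions at the distance the study used, which lies between the alternatives of 5 and 25 kb, and ranked by summed peak width, since the list has no signal. The internal CREM cluster ranked 365 of 17049 regions and was past the point where the ranked curve reaches a slope of 1, which 879 regions passed, with 7.99 kb as the smallest. Among regions that overlap the bodies of the 5 genes it was the only one to do so, 1 gene of 5 against 7.58% of protein-coding genes. Counting flanks, CREB1 also had one, since the 3 METTL21A promoter peaks downstream of it formed a region of 10.96 kb at rank 495, which makes 2 genes of 5 against 13.3%. With peaks that lay wholly within 2.5 kb of a start left out, the rest of the cluster ranked 540 and fell below the point, which 460 regions then passed. The regions at CREB1 and EWSR1 followed at ranks 2229 and 2244, with 4.32 kb in 1 peak and 4.3 kb in 4 peaks spread over 21.09 kb. Ranked by span instead of summed width, EWSR1 moved to 874 and past the point. The outer CREM start ranked 2940, ATF1 5749 and TAF15 8441.

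**Figure D4:**
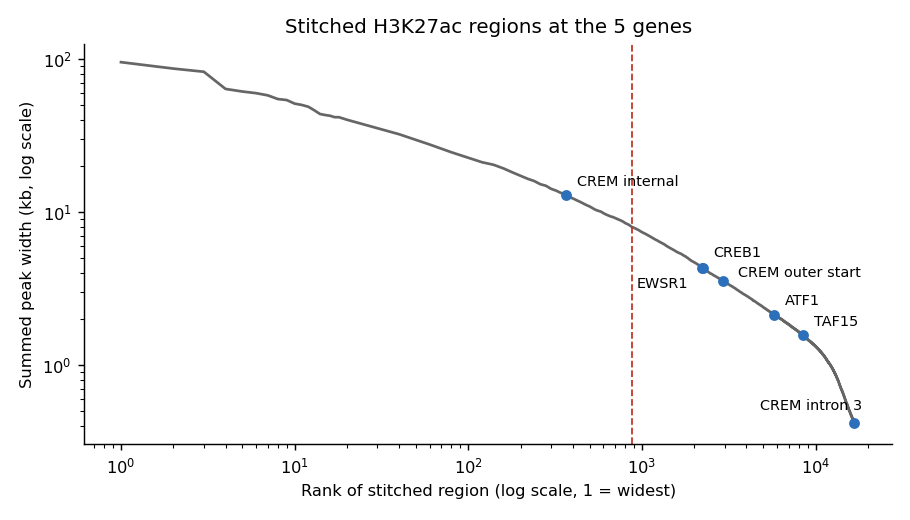
Summed peak width of each stitched region in kb against its rank, both on log scales, with the regions that overlap the bodies of the 5 genes in blue. The dashed line marks the 879th region, where the scaled curve has a slope of 1; the internal CREM region, of 13.02 kb at rank 365, is the only one to its left.

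Of the 14 protein-coding genes within 50 kb of the 5 genes, 8 (57.1%) had a promoter peak, against 63.4% of all protein-coding genes. These were 4 of 5 at EWSR1, 0 of 4 at TAF15, 1 of 2 at ATF1, 1 of 1 at CREB1 and 2 of 2 at CREM. METTL21A, beside CREB1, had the largest summed width, with 3 promoter peaks summing to 10960 bases. CUL2, which shares the outer CREM peak, had 5 promoter peaks summing to 6040 bases. At EMID1, RASL10A and AP1B1, the other neighbours of EWSR1, the summed widths were 510, 0 and 1420 bases.

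Nearly all listed genes that work with the CREB family had a promoter peak. The list was chosen with earlier results of these data known, and enrichment was not tested. Of 13 coactivators and kinases of CREB proteins, 12 (92.3%) had a promoter peak, against 63.4% of all protein-coding genes, and the exception was CAMK4, a calcium/calmodulin-dependent kinase. The widest promoter acetylation of this list was at PRKAR1A, a regulatory subunit of protein kinase A, with 5 peaks summing to 9820 bases, followed by CREBBP, the acetyltransferase that CREB recruits, with 6 peaks and 6000 bases. The list median was 1955 bases over the genes with a promoter peak, beside 1760 bases for all such genes. None of the promoter peaks in this list held TGACGTCA.

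Of 15 classical CREB target genes, 10 (66.7%) had a promoter peak, a share near the 63.4% of all protein-coding genes. They ran from the immediate-early genes FOS and EGR1 to the gluconeogenic gene PCK1, with a median summed width of 4265 bases beside 1760 bases for all genes with a promoter peak. The widest were at PPARGC1A, a transcriptional coactivator of energy metabolism, with 15040 bases, and at SIK1, a kinase that phosphorylates CREB coactivators, with 13150 bases. TGACGTCA occurred in the promoter peaks of 5 of the 10, NR4A2, PER1, SIK1, DUSP1 and PPARGC1A, against 6.09% of all genes with a promoter peak. These genes were listed because they are CREB targets, and wider peaks hold more sequence to match, so enrichment was not tested. Among the 6 CCS and melanocytic markers named below, 3 also held the site, MITF, SOX10 and PMEL. The 5 targets without a promoter peak, SST, BDNF, VGF, CRH and TH, are genes of neurons and endocrine cells.

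Of 16 known fusion partners of EWSR1 in other tumors, 10 (62.5%) had a promoter peak, against 63.4% of all protein-coding genes. The partners without one were FLI1, ERG and FEV, of the ETS family, together with WT1, POU5F1 and TFCP2. ETV1 and ETV4, also of the ETS family, had promoter peaks summing to 3280 and 1170 bases. At NR4A3 and DDIT3 the promoter peaks summed to 5970 and 5950 bases. All 9 listed genes for other prion-like RNA-binding proteins, among them TARDBP and HNRNPA1, had a promoter peak, against 63.4% of all protein-coding genes. Their median summed width was 2660 bases, beside 1760 bases for all genes with a promoter peak. The widest were DAZAP1 and RBM33, with 23030 and 21070 bases.

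Markers of cell types were also looked up. They were chosen with earlier results of these data known, so their peaks describe the list and are no independent check of cell identity. Promoter peaks were present at all 6 CCS and melanocytic markers, MITF, SOX10, PMEL, S100B, MLANA and TFAP2A, against 63.4% of all protein-coding genes. Their median summed width was 8140 bases, beside 1760 bases for all genes with a promoter peak. S100B (1010 bases) and MLANA (1640 bases) lay under that median of all genes. None of the 6 skeletal muscle markers and none of the 3 blood markers had a promoter peak, and of the 4 epithelial markers KRT8 alone did.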

How the data were processed

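Chromatin of SU-CCS-1 was immunoprecipitated with an anti-H3K27ac antibody or sequenced as input, in 3 libraries each. Per the labels and methods, the authors used BWA-MEM (BWA 0.7.10-r789) for alignment to hg38, removed duplicates with samtools, called broad peaks with MACS2 (2.2.6) against input, and removed peaks in ENCODE denylist regions. They deposited 1 merged list of peak positions; whether replicates were joined before or after calling, and the depth behind it, are not given in the sources used here. Loci without a peak fell below the calling cutoff or were filtered out, and broad calling affects widths and gaps.

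Peaks were joined to GENCODE version 44 genes with Python 3.11.15. Coding genes shared by X and Y were counted once, on X. Start groups joined starts within 500 bases, short gaps were at most 1 kb, and stitching used the distance of the study. Motifs were searched on both strands of hg38. RefSeq windows of 4 of the 5 genes were found, none for TAF15. GENCODE canonical proteins were translated and aligned globally with Biopython 1.88. Counting scripts were tested on simulated data. Named genes were the 5 genes, coding genes within 50 kb, and the listed genes. The genes and lists were chosen with earlier results of these data known.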

Additional observations from a re-analysis of the deposited data

How the results depend on the processing

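The list holds no values per replicate and no depth, so no result could be checked for replicate error. No paired analysis was possible because the deposited list merges the replicates and no result comes from a test. Of 87 alternative values, 57 stayed within 1.5 times the reported count or within its counting interval and 30 moved. All 5 genes kept a promoter peak under each alternative for promoters, while the share of all protein-coding genes with one was 61.7% within 1 kb, 61.3% with coding transcripts and 49.0% with peaks at or above the median width. With flanks of 100 kb the peak counts were 8 at EWSR1, 2 at TAF15 and 6 at ATF1, and with the wider peaks alone they were 2 at EWSR1 and 5 at CREM, so that the narrow intronic peaks of EWSR1 and most of the CREM cluster dropped out. Promoter peaks of EWSR1 numbered 1 within 1 kb, with coding transcripts and with the canonical transcript. Those of CREM numbered 4 within 1 kb and 1 with the canonical transcript, where their summed width was 3120 bases. Stitching at 5 kb moved EWSR1 to rank 3553 and CREM to rank 888, with CREM still past the slope-1 point, which 889 regions passed. Ranking by span gave EWSR1 rank 874, past the point, and CREB1 rank 4352. Without peaks wholly within 2.5 kb of a start, a filter that keeps wide peaks such as the CREB1 start peak, the ranks were 5341 for EWSR1, 1359 for CREB1 and 540 for CREM, all below the point, and TAF15 and ATF1 had no region left. Matches to the half-site TGACG in promoter peaks numbered 1 at EWSR1, 1 at TAF15, 2 at ATF1, 4 at CREB1 and 5 at CREM, and including short gaps gave CREM 1 match to TGACGTCA. The flexible form TGANNTCA, added after seeing the data, gave 1 match at EWSR1, 2 at CREB1 and 8 at CREM.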

Other observations

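The AP1 site TGAGTCA, bound by FOS and JUN proteins, occurred 8 times in 4 of the 29 peaks (13.8%, against 16.8% of all peaks). Of these, 4 lay in the 6660-base METTL21A promoter peak downstream of CREB1, 2 in the outer CREM start peak, 1 in the TAF15 start peak and 1 in the CREM flank.

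A RefSeq window of CREM at chr10:35167314-35167613, over a start in the fourth group, held 2 matches to TGANNTCA and no base of it lay in a peak. The nearest peak to that start group was 4775 bases away.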
